A study of Mus musculus with 6 samples.

Results

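The nuclei described here were Muller glia nuclei in which at least 2 of the genes Tbx5, Efnb2, Brinp1, Nxph1 and Nr2f2 were seen. A nucleus entered the Muller gate when it held more than 500 UMIs (unique molecular identifiers, each standing for 1 captured RNA molecule), at least 200 genes and under 5% mitochondrial counts, together with 2 or more UMIs of Abca8a and a UMI of at least 3 of Rlbp1, Glul, Slc1a3, Aqp4, Ano1 and Kcnj10. Nuclei with more than 1 of 5 reactive genes (Gfap, Gpnmb, Nupr1, Pvt1, Morrbid) or more than 1 of 6 interferon-induced genes (Rsad2, Iigp1, Gbp2, Gbp4, Gbp5, Ifi204) were set aside. Of 56205 nuclei that passed the quality filters, 4809 passed the Muller gate and 3721 of these were within both limits. Among them, 481 held a UMI of 2 or more of the 5 genes and are called co-positive nuclei below, 930 held 1 of the 5, and 2310 held none and are called negative nuclei. A further 122 nuclei had 2 or more of the 5 genes but were over a limit, and these were not used.

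Muller glia are the radial glia of the retina. They span its full depth, recycle glutamate, buffer potassium and support photoreceptors, and they keep the positional identity that the eye cup acquires in development. In the mouse eye the dorsal side of that map is set by BMP signalling through the T-box factor Tbx5, the ventral side by the homeodomain factors Vax1 and Vax2, and the sides differ in ephrin-B ligands, EphB receptors and enzymes that make retinoic acid. Efnb2 encodes the dorsal ligand ephrin-B2. Nr2f2 encodes the orphan nuclear receptor COUP-TFII, Brinp1 a neural protein inducible by BMP and retinoic acid, and Nxph1 the secreted glycoprotein neurexophilin 1.

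The nuclei came from frozen retinas of B6.CXB1-Pde6b-rd10/J mice, in which a Pde6b mutation causes rods and then cones to die, so that every library carried the degenerating genotype. Eyes had been injected into the vitreous at postnatal day 18 with saline or with 20 ng of recombinant IL-27, a cytokine of the IL-12 family, and retinas were taken at day 20. Replicates 1, 2 and 6 received saline and replicates 4, 5 and 10 received IL-27, 3 libraries each, with no uninjected and no wild-type group. The labels do not say whether 1 or several animals stand behind a library, so the p-values measure the spread between these 6 libraries.

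Each library held 8968 to 9965 barcodes and 36678332 to 48260748 UMIs, and a pair of libraries shared 18 to 30 barcodes. Saline replicates 1, 2 and 6 held 94, 94 and 72 co-positive nuclei, IL-27 replicates 4, 5 and 10 held 114, 66 and 41, and negative nuclei numbered 447, 372 and 533 against 437, 300 and 221. The Muller label held in the gate as a whole: Dkk3, which the gate did not use, lay at 989 to 1382 CPM (a gene's UMIs in a sum of nuclei, scaled to a common total) in gate nuclei and at 138 to 173 CPM in all others, and the thyroid hormone-binding protein gene Crym at 292 to 539 against 41.5 to 95.9 CPM. In the co-positive nuclei the summed level of 18 Muller genes not used by the rule was 4685 to 8157 CPM, below the 9375 to 9809 CPM of the negative nuclei in every library.

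Efnb2 was the most often seen of the 5 genes. It had a UMI in 385 of the 481 co-positive nuclei (80.0%), Brinp1 in 234 (48.6%), Nr2f2 in 226 (47.0%), Nxph1 in 149 (31.0%) and Tbx5 in 125 (26.0%). These shares chose the nuclei and are a description. For comparison, 6149 rod nuclei were taken from outside the Muller gate, with 5 or more of 8 rod genes and no Abca8a. They were also cut on the doublet score and the 32 neuronal marker genes described below, and the co-positive nuclei were not. The rod nuclei held a UMI of Efnb2 in 1.76%, Brinp1 in 1.71%, Nxph1 in 1.69%, Nr2f2 in 3.29% and Tbx5 in 0.0976%. Their median depth was 1385 UMIs against 5788 in co-positive nuclei. Outside the Muller gate as a whole, Brinp1 was seen in 19.3% of nuclei and Nxph1 in 6.92%, more often than among the Muller-gate nuclei (10.3% and 5.78%). Efnb2, Nr2f2 and Tbx5 were seen more often inside the gate, at 23.0%, 9.17% and 4.74% against 10.7%, 6.29% and 2.10%.

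**Figure D1:**
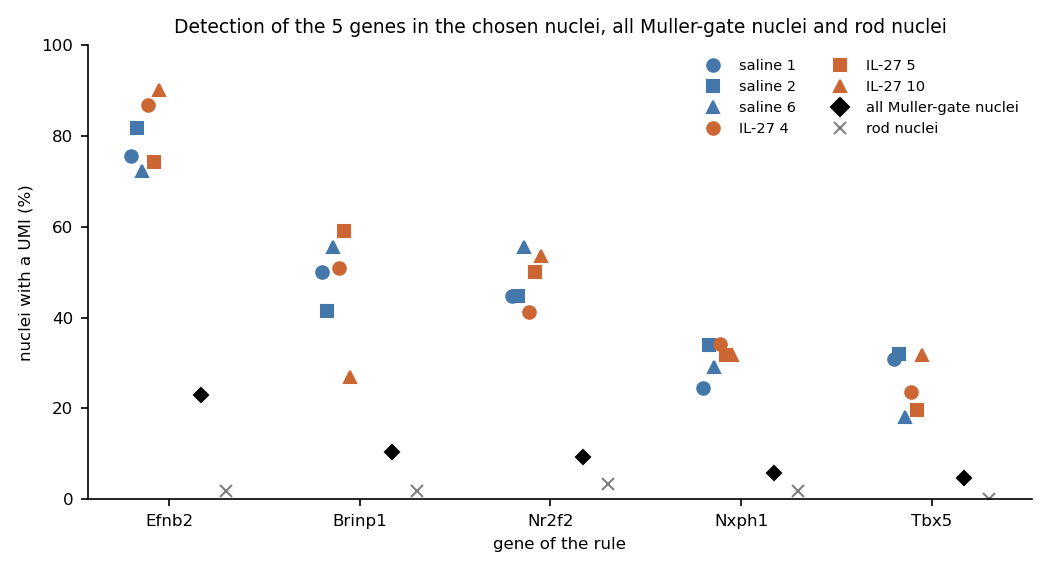
Share of nuclei with a UMI of each of the 5 genes (y axis, %), by gene (x axis). Coloured points are the co-positive nuclei of each library, black diamonds all Muller-gate nuclei and grey crosses rod nuclei. Efnb2 was seen in 72.2% to 90.2% of co-positive nuclei and Tbx5 in 18.1% to 31.9%.

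The plot of the 5 genes shows no order of the saline and IL-27 libraries that held over all genes. Brinp1 ranged most widely, from 26.8% of co-positive nuclei in IL-27 replicate 10 to 59.1% in IL-27 replicate 5, and Nr2f2 from 41.2% to 55.6%. Summed over the co-positive nuclei of a library, Tbx5 lay at 40.0, 46.9 and 16.0 CPM in saline and 36.5, 31.7 and 57.7 CPM in IL-27. Saline replicate 6 was the lowest library for both Tbx5 and Efnb2, the latter at 105 CPM beside 181 to 278 CPM in the other 5.

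Pairs that contained Efnb2 were the most common combinations. Efnb2 with Nr2f2 alone made up 95 nuclei, Efnb2 with Brinp1 77, Tbx5 with Efnb2 46 and Efnb2 with Nxph1 40. Most co-positive nuclei sat at the edge of the rule: 345 held exactly 2 of the genes, 116 held 3, 19 held 4 and 1 held all 5. Just inside the rule, nuclei with exactly 2 genes carried 755 CPM of the 5 genes together, and just outside it, nuclei with exactly 1 gene carried 310 CPM. These nuclei were sorted by the same 5 genes, so the order of the 2 values is a description and not a finding.

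Because a deeper nucleus has more chances to show any gene, co-detection was also read after the Muller-gate nuclei were thinned to 2000 UMIs each, which left 4747 of the 4809. At that depth Efnb2 was seen in 58 of 179 nuclei with Nr2f2 (32.4%, 95% exact binomial interval 25.6% to 39.8%) and in 11.3% of nuclei without it. Efnb2 was seen in 26.5% of nuclei with Tbx5 (18.1% to 36.4%) against 11.8% without. Brinp1 was seen in 12.2% of nuclei with Tbx5 (6.49% to 20.4%) against 4.56%, and Nxph1 in 5.1% (1.68% to 11.5%) against 3.21%, where the interval takes in the share without. The intervals cover counting error only.

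Mixed nuclei, read by a doublet score, were more frequent here than among the negative nuclei when all depths were counted. Scrublet, which scores how much a barcode resembles a sum of 2 others, gave a high score to 154 of the 481 co-positive nuclei, 24.2% to 42.1% by library, against 9.17% to 16.7% of negative nuclei. The share was 12.5% in nuclei with none of the 5 genes and 20.6%, 31.0% and 33.6% in those with 1, 2 and 3, whose median depths were 4501, 4929, 5497 and 6262.5 UMIs. The high-scoring co-positive nuclei had a median of 11507.5 UMIs, and 96.1% of them held more than 2 of 32 marker genes of cones and of bipolar, amacrine, horizontal and ganglion cells. Combinations differed: 19 of the 27 nuclei with Brinp1 and Nxph1 alone scored high, and 7 of the 46 with Tbx5 and Efnb2 alone.

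The comparisons of the classes below were run in all nuclei and in 2 narrower sets. Nuclei without a high Scrublet score, called doublet-free or without doublets below, numbered 327 co-positive (median 4718 UMIs) and 2021 negative (4319 UMIs). Neuron-poor nuclei, which in addition held at most 2 of the 32 neuronal markers, numbered 194 (4379 UMIs) and 1448 (4182 UMIs). The name doublet-free is only a label for the score. More than 2 of the 32 markers were still held by 40.7% of doublet-free co-positive and 28.4% of doublet-free negative nuclei. The neuron-poor set was chosen after the data were seen, and since it was cut on neuronal markers, a low level of them in it is not a finding.

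**Figure D2:**
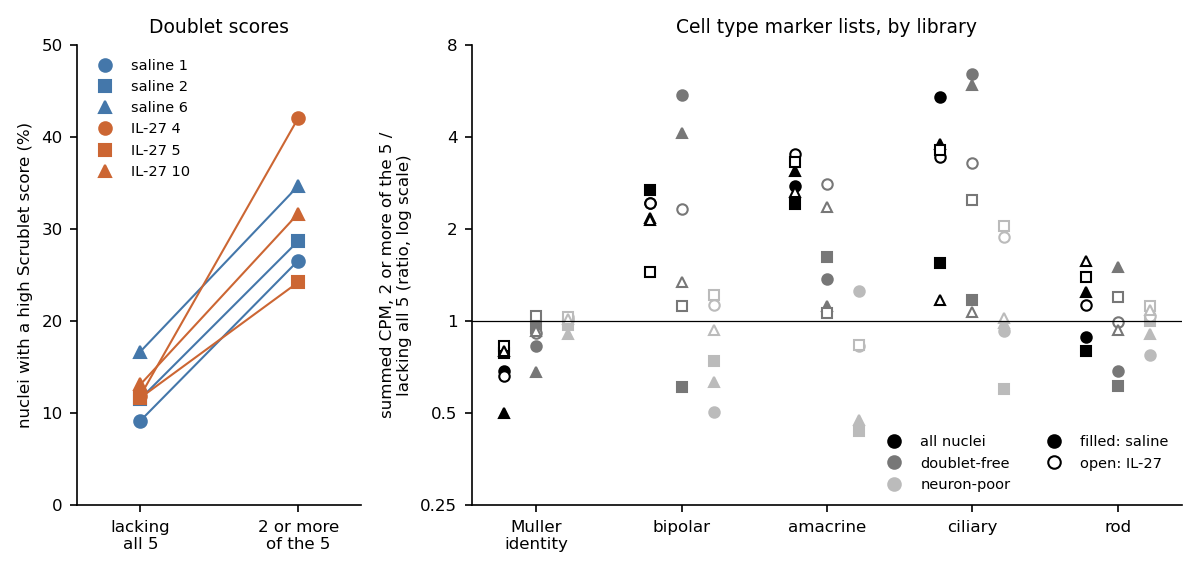
Left, share of nuclei with a high Scrublet score (y axis, %) in negative and co-positive nuclei, joined by library. Right, summed CPM of each marker list in co-positive nuclei divided by that in negative nuclei (y axis, log scale), 1 point a library, for all, doublet-free and neuron-poor nuclei (filled points saline, open points IL-27, a ratio of 0 not drawn). With all depths counted, the Scrublet share was higher in co-positive nuclei in all 6 libraries. The bipolar ratio had a median of 2.31 in all nuclei and 0.84 in neuron-poor nuclei.

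Markers of other retinal cells moved with the co-positive nuclei, as the plot of marker lists shows. The 7 bipolar markers summed to 1494 to 4745 CPM in co-positive and 703 to 2179 CPM in negative nuclei, higher in 6 of 6 libraries, and the 6 amacrine markers to 166 to 285.5 against 57.8 to 92.3 CPM. The 4 horizontal markers were 2.72 times and the 7 ciliary margin markers 3.54 times as high, as medians over libraries. The 7 cone markers stood at 1.99 times and the 8 ganglion markers at 1.97 times, higher in 4 and in 6 of 6 libraries. The 8 rod markers stood at 1.19 times, the 8 microglial markers at 0.856 times with Tmem119 at 0 UMIs, and the 7 endothelial markers at 0.669 times. The astrocyte factor Pax2 and the pericyte gene Kcnj8 were at 0 UMIs, as were Rpe65, Mlana and Tyr of the pigment epithelium.

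Among doublet-free nuclei the median ratios were 1.84 for bipolar, 1.5 for amacrine, 2.9 for ciliary and 0.923 for the Muller genes. The ganglion list stood at 2.37 times there and at 1.77 times in neuron-poor nuclei, higher in 6 of 6 libraries in both. The cone list stood at 0.94 and 1.24 times. One library stood apart: the doublet-free co-positive nuclei of saline replicate 6 still held 5480 CPM of bipolar markers, while the other libraries held 245 to 1584 CPM. Among neuron-poor nuclei the 18 Muller genes lay at 9987 to 11020 CPM in co-positive and 10220 to 11020 CPM in negative nuclei. Nuclei with 3 or more of the 7 ciliary genes made up 39 of the 481 co-positive nuclei (8.11%) and 35 of the 2310 negative nuclei (1.52%), none of them among the neuron-poor co-positive nuclei. The part of mixed nuclei in the differences below is given by the 3 sets of values and was not otherwise tested.

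Each of the 5 genes was then read in nuclei chosen without it, with 2 or more of the other 4 genes against none of them. The 5 genes were grouped with results of these same nuclei known, so their going together is not independent evidence. Efnb2 lay at 111, 236 and 60.3 CPM in saline and 217, 155 and 252 CPM in IL-27 libraries in nuclei with 2 or more of the other genes, and at 38.2 to 77.8 CPM in nuclei with none. Its log2 fold change was 1.47 ± 0.17 (SE, 6 libraries, edgeR quasi-likelihood adjusted p = 1.46e-06), in a fit where 14.1% of genes were higher. Without doublets it was 2.32 ± 0.22 (3.7% of genes higher), and in neuron-poor nuclei 2.71 ± 0.21 (0.78% higher).

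Nr2f2 was also higher in nuclei chosen without it. The log2 fold change was 1.69 ± 0.18 in all nuclei (13.0% of genes higher), 2.31 ± 0.24 without doublets (3.95% higher) and 2.58 ± 0.34 in neuron-poor nuclei (1.66% higher). Brinp1 had 2.30 ± 0.16 (10.2% higher) and 2.42 ± 0.25 without doublets (3.35% higher), and Nxph1 2.84 ± 0.34 (12.8% higher) and 2.40 ± 0.58 (3.64% higher). Tbx5 was under the count filter. With no filter it stood at 1.59 ± 0.29 (adjusted p = 8.03e-07, 7.1% of genes higher), on 63 UMIs in 407 nuclei against 64 UMIs in 2367. Unfiltered fits gave smaller errors, with an SE of 0.13 for Nxph1 against 0.34 with the filter. The p-value of Tbx5 therefore takes in less of the spread between libraries than the others. In saline replicate 6 Tbx5 was not higher (4.34 against 4.88 CPM), nor was Nxph1 there once doublets were removed (13.6 against 63.2 CPM). Neither Brinp1 nor Nxph1 passed the count filter in neuron-poor nuclei. There, Brinp1 was seen in 21.2% of nuclei with 2 or more of the other genes and 3.98% of nuclei with none, and Nxph1 in 14.8% against 2.29%.

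Against the negative nuclei of the same libraries, 1432 of 10261 genes not used by the rule were higher in co-positive nuclei (14.0%) and 1302 were lower (12.7%) at an adjusted p under 0.05. Doublet-free nuclei gave 334 higher (4.1%) and 257 lower (3.16%) of 8144 genes. Neuron-poor nuclei gave 118 higher (1.9%) and 110 lower (1.77%) of 6219. Of the 334 genes higher without doublets, 303 were also called higher in all nuclei, and 79 of them in neuron-poor nuclei. Without saline replicate 1 the doublet-free counts were 219 higher and 147 lower, and without saline replicate 6 they were 256 and 194.

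Genes among the higher ones in all nuclei differed in how they followed the set of nuclei. Grin2a, an NMDA receptor subunit, had a log2 fold change of 4.03 ± 0.19, and the AMPA receptor subunit Gria2 2.31 ± 0.12. Snap25, a vesicle fusion protein, went from 1.69 ± 0.12 in all nuclei to 0.24 ± 0.21 in neuron-poor ones. Gria2 kept 1.30 ± 0.28 (adjusted p = 7.52e-04), and Grin2a was under the count filter in both narrower sets.

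Gm29683, a long intergenic noncoding RNA, differed more as mixed nuclei were removed. It lies at chr7:70178868-70337852 on the minus strand (GRCm38, GENCODE M21), 14.1 kb from Nr2f2 and on the same strand. In doublet-free co-positive nuclei it stood at 289, 435 and 202 CPM in saline and 400, 379 and 264 CPM in IL-27 libraries, and in negative nuclei at 26.7, 27.3 and 14.8 against 60.2, 25.8 and 35.6 CPM. Every co-positive value lay above every negative value. The log2 fold change was 2.63 ± 0.17 in all, 3.44 ± 0.17 in doublet-free (10.8-fold, adjusted p = 1.86e-09) and 3.68 ± 0.16 in neuron-poor nuclei. It had a UMI in 66.7% of the 162 doublet-free nuclei with Nr2f2, 67.3% of the 165 without, 7.32% of negative nuclei and 0.358% of rod nuclei.

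B130024G19Rik, an antisense neighbour that overlaps Nr2f2, also rose, by 1.87 ± 0.18 in all and 2.48 ± 0.27 in doublet-free nuclei. Counting against the 2 strands is not described in the sources used here, so its reads and those of Nr2f2 cannot be told apart with certainty. It was seen in 22.8% of rod nuclei as well, and in 23.5% of doublet-free co-positive nuclei against 3.56% of negative nuclei.

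**Figure D3:**
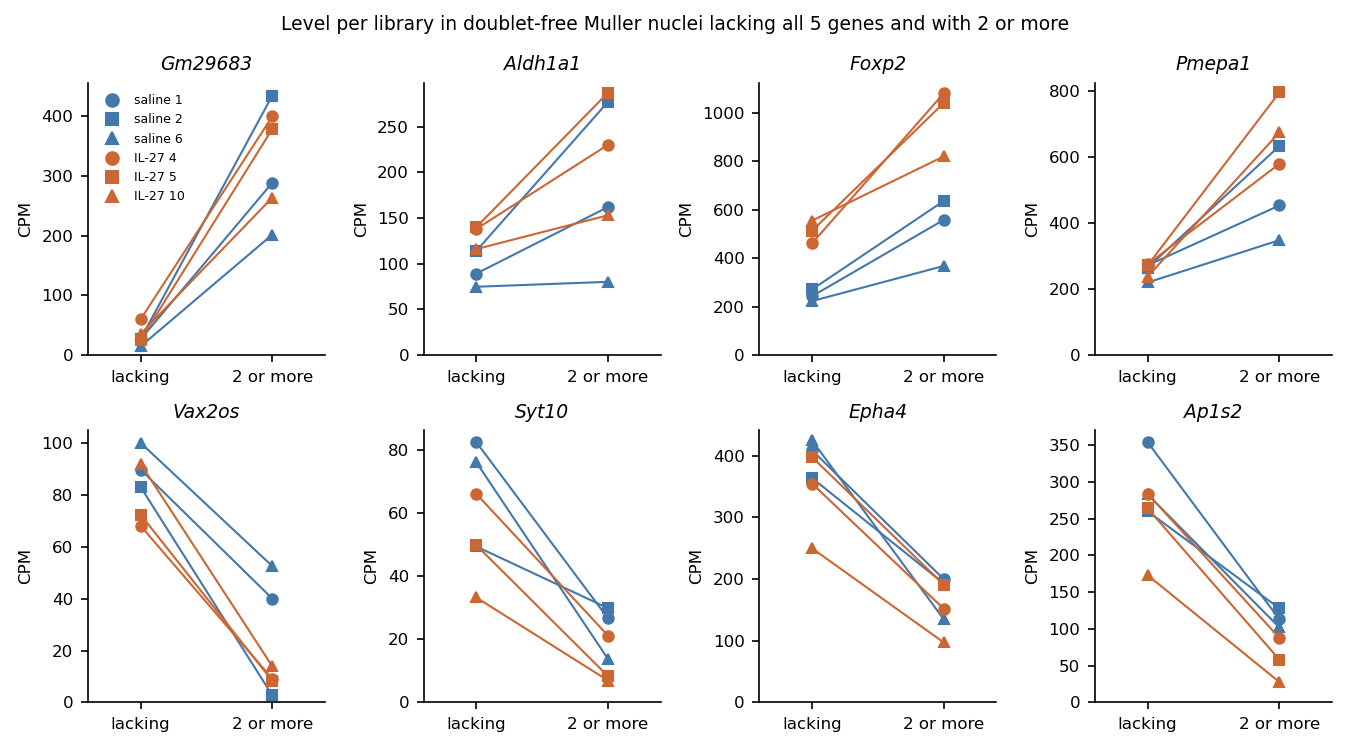
Level of 8 genes (y axes, CPM) in doublet-free negative nuclei (left of each panel) and co-positive nuclei (right), 1 line a library, blue saline and orange IL-27. The 4 genes of the upper row were higher in co-positive nuclei in 6 of 6 libraries and the 4 of the lower row lower in 6 of 6.

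Dorsal genes were few among the genes that could be tested. Of 9 listed dorsal genes, 3 belong to the rule and 3 passed the count filter in all nuclei, with none called, and in each narrower set 1 of 2 was higher (4.1% and 1.9% of all genes were). Aldh1a1, which encodes the retinaldehyde dehydrogenase of the dorsal retina, lay at 162, 277 and 80.2 CPM in saline and 230, 287 and 153 CPM in IL-27 libraries in doublet-free co-positive nuclei, against 74.8 to 140 CPM in negative nuclei. It was higher in 6 of 6 libraries, and in saline replicate 6 by little (80.2 against 74.8 CPM). Its log2 fold change was 0.29 ± 0.13 in all nuclei (adjusted p = 0.129, and 0.44 with adjusted p = 0.00658 without saline replicate 6), 0.80 ± 0.14 in doublet-free (adjusted p = 0.00165) and 1.004 ± 0.15 in neuron-poor nuclei, where saline replicate 6 was the lower of the pair (52.0 against 77.2 CPM). Aldh1a1 was seen in 54.7% of doublet-free co-positive nuclei, 29.7% of negative nuclei and 2.96% of rod nuclei.

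The ventral genes depended on the nuclei that were kept. Of 8 listed, 6 were tested in all nuclei and 5 fell: Vax2, Ephb3, Bmpr1b, Chrdl1 and Nr2f1 (12.7% of all genes were lower), with a list median of -0.75. Without doublets 1 of 5, Vax2, fell (3.16% of all genes, list median -0.34), and in neuron-poor nuclei 0 of 4 did (1.77%, list median -0.03). Vax2, the ventral homeodomain factor, lay at 4.44, 0 and 11.1 CPM in saline and 3.03, 8.32 and 0 CPM in IL-27 libraries in doublet-free co-positive nuclei, against 20.8 to 32.2 CPM in negative nuclei, without overlap. This was a log2 fold change of -1.15 ± 0.27 in all and -2.39 ± 0.43 in doublet-free nuclei (adjusted p = 0.00204), on 9 UMIs. In neuron-poor nuclei 3 UMIs were left and Vax2 was under the count filter.

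Vax2os, a transcript antisense to Vax2 that overlaps its start, fell with it. The log2 fold change was -1.07 ± 0.16 in all, -1.90 ± 0.30 in doublet-free and -3.76 ± 0.41 in neuron-poor nuclei, the last on 5 UMIs in 194 co-positive nuclei beside 498 UMIs in 1448 negative nuclei. Vax2os was seen in 34.2% of rod nuclei, and in 5.2% of doublet-free co-positive and 25.3% of negative nuclei. Bmpr1b, a BMP receptor, went from -0.83 ± 0.11 in all nuclei to -0.34 ± 0.13 (adjusted p = 0.163) without doublets, and Nr2f1, which encodes COUP-TFI, from -0.53 ± 0.16 to -0.48 ± 0.19 (adjusted p = 0.18). The Nr2f1 call in all nuclei was lost without saline replicate 1 (adjusted p = 0.078) and without IL-27 replicate 4 (adjusted p = 0.069). Ephb3, an EphB receptor, fell by 1.08 ± 0.27 on the log2 scale in all nuclei and was under the count filter in the others. Chrdl1, a BMP antagonist gene, went from -0.68 ± 0.14 to -0.24 ± 0.15 without doublets and -0.04 ± 0.12 in neuron-poor nuclei, and the EphB receptor gene Ephb2 stood at 0.10, 0.19 and 0.24 over the 3 sets, with none called.

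Of Adamts17, Syt10 and Hormad2, listed as genes of another Muller subset, all 3 were lower in all nuclei (12.7% of all genes), 2 without doublets (3.16%) and 1 in neuron-poor nuclei (1.77%). Syt10, a synaptotagmin, lay at 26.7, 29.9 and 13.8 CPM in saline and 21.2, 8.32 and 6.95 CPM in IL-27 libraries in doublet-free co-positive nuclei, below the 33.3 to 82.6 CPM of negative nuclei. Its log2 fold change was -1.53 ± 0.17 in all, -1.68 ± 0.23 in doublet-free and -1.30 ± 0.29 in neuron-poor nuclei (adjusted p = 0.00161). Adamts17, a secreted metalloprotease, had -0.81 ± 0.20, -1.22 ± 0.28 and -0.93 ± 0.33 (adjusted p = 0.11). Hormad2 fell by 0.84 ± 0.28 on the log2 scale in all nuclei only (adjusted p = 0.0316, and 0.223 without saline replicate 6 or 0.153 without IL-27 replicate 4), and stood at -0.27 ± 0.28 without doublets.

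Listed genes of the nasal side, 2 of 4 tested, were not called in any of the 3 sets. Of the temporal genes, the Eph receptor genes Epha5 and Epha6 were tested in all nuclei, where Epha6 was higher by 3.31 ± 0.24 and Epha5 lower, with -0.35 ± 0.09. Without doublets Epha6 was under the count filter and Epha5 stood at -0.02 ± 0.09, and in neuron-poor nuclei Epha5 was called higher. Within the doublet-free co-positive nuclei, those with and without Tbx5 were set side by side with no test. Vax2os was seen in 5.21% of nuclei with Tbx5 and 5.2% of those without, while its level was 11.0 against 28.9 CPM, on 6 and 39 UMIs. Aldh1a1 was seen in 56.3% against 54.1% (211 against 190 CPM), and Syt10 in 8.33% against 9.09% (25.7 against 17.8 CPM, on 14 and 24 UMIs). Foxp2 was seen in 83.5% of nuclei with Brinp1 and 69.1% without, and in 48.2% of negative nuclei.

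Retinoic acid genes showed the same dependence on the nuclei as Aldh1a1. Of 19 listed genes, 8 were tested in all nuclei, with 0 higher and 2 lower (14.0% and 12.7% of all genes). Without doublets 3 of 8 rose (4.1% of all genes) and 0 fell, and in neuron-poor nuclei 3 of 5 rose (1.9%), each time with Rarb and Aldh1a1 among them, and with a list median of 0.38 and 0.65 beside 0.01 over all genes. Rarb, a retinoic acid receptor, lay at 69.1 to 212 CPM in doublet-free co-positive and 78.7 to 111 CPM in negative nuclei. Its difference was 0.75 ± 0.15 (adjusted p = 0.00467, higher in 5 of 6 libraries) and 0.92 ± 0.16 in neuron-poor nuclei.

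**Figure D4:**
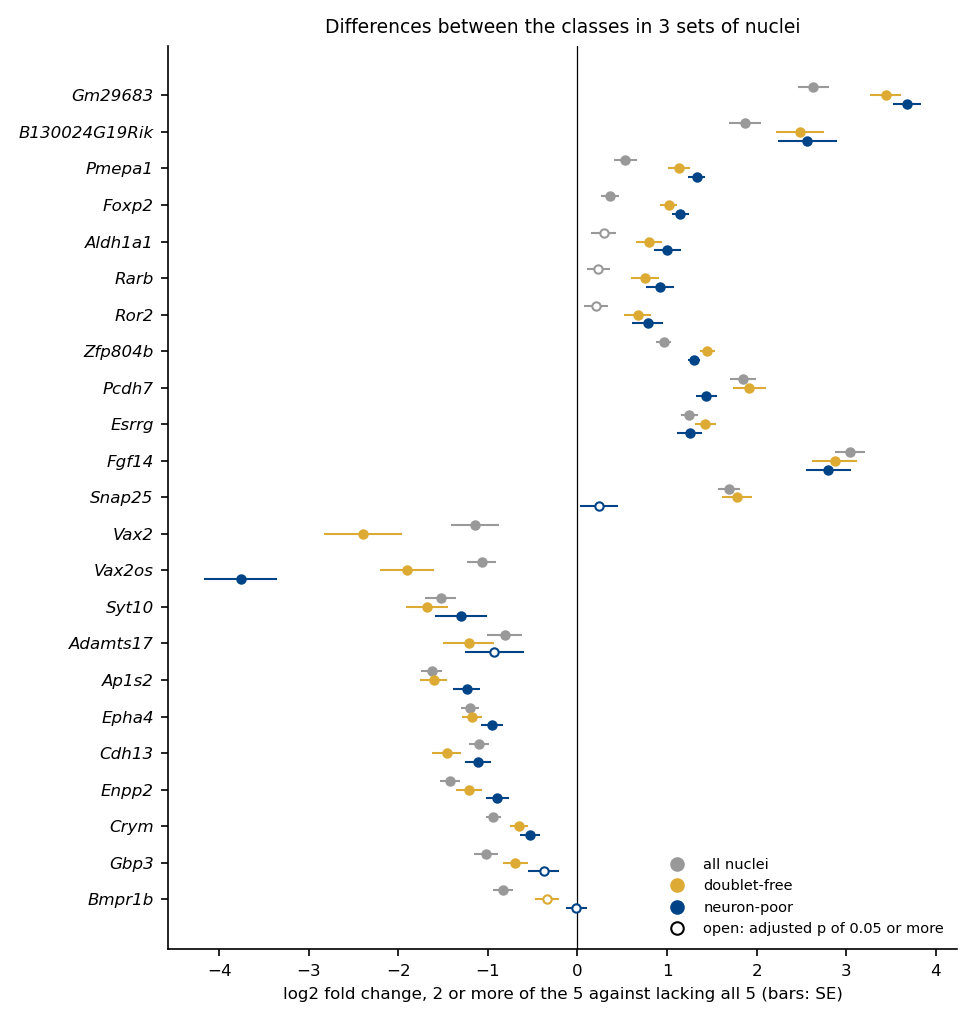
Log2 fold change of 23 genes between co-positive and negative nuclei (x axis, bars 1 SE, 6 libraries, edgeR), for all, doublet-free and neuron-poor nuclei. Open points did not pass an adjusted p of 0.05. Gm29683 went from 2.63 to 3.68 and Vax2os from -1.07 to -3.76 as mixed nuclei were removed, and Snap25 from 1.69 to 0.24.

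The plot of log2 fold changes sets these genes beside others that were higher in all 3 sets. Zfp804b, a zinc finger gene, lay at 3780 to 5030 CPM in doublet-free co-positive and 1480 to 1860 CPM in negative nuclei, a difference of 1.45 ± 0.09, and 1.30 ± 0.07 in neuron-poor nuclei. Pmepa1, a TGF-beta-induced inhibitor of TGF-beta signalling, had 0.53 ± 0.13, 1.13 ± 0.12 and 1.33 ± 0.09, and the forkhead factor Foxp2 0.37 ± 0.10, 1.02 ± 0.10 and 1.15 ± 0.09 over the 3 sets, with the call in all nuclei lost without saline replicate 1 (adjusted p = 0.0594). The protocadherin gene Pcdh7 had 1.85 ± 0.14, 1.92 ± 0.18 and 1.44 ± 0.12. These 4 genes were higher in 6 of 6 libraries in both narrower sets.

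Also higher in all 3 sets were the nuclear receptor gene Esrrg, with 1.25 ± 0.14 in neuron-poor nuclei, the contactin gene Cntn3 with 2.79 ± 0.33, the sodium channel partner Fgf14 with 2.80 ± 0.25, and Stxbp6, a SNARE-binding protein gene, with 1.16 ± 0.15. Pcdh9 had 0.70 ± 0.06. Rbpms, an RNA-binding protein gene used as a ganglion cell marker, had 2.10 ± 0.19 without doublets and was seen in 34.3% of those co-positive nuclei, against 9.75% of negative and 1.17% of rod nuclei. It was the 1 gene of the ganglion list that could be tested without doublets, and it is among the 32 markers that define the neuron-poor set. Rbpms stood at 396 CPM in IL-27 replicate 10 and at 69.1 to 120 CPM in the other doublet-free libraries.

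Among the lower genes, Epha4, an Eph receptor, lay at 97.3 to 200 CPM in doublet-free co-positive and 250 to 425 CPM in negative nuclei, with -1.20 ± 0.10, -1.18 ± 0.11 and -0.95 ± 0.12 over the 3 sets. Ap1s2, a clathrin adaptor subunit, had -1.63 ± 0.12, -1.60 ± 0.15 and -1.24 ± 0.15. Cdh13, which encodes T-cadherin, had -1.10 ± 0.11, -1.46 ± 0.16 and -1.11 ± 0.15. All 3 were lower in 6 of 6 libraries. Enpp2, whose product autotaxin makes lysophosphatidic acid, fell by 1.42, 1.21 and 0.89 on the log2 scale, the amino acid transporter Slc7a8 by 1.08, 1.08 and 1.06, the glutamate transporter Slc1a2 by 0.47, 0.88 and 0.98, and the laminin gene Lama2 by 1.42, 1.94 and 2.10.

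In the wider Eph and ephrin list, 12 of 22 genes were tested in all nuclei with 4 higher and 3 lower (14.0% and 12.7% of all genes). Without doublets 7 were tested, with Epha3 and Epha7 higher and Epha4 lower (4.1% and 3.16%), and in neuron-poor nuclei 7, with Epha5 higher and Epha4 lower (1.9% and 1.77%). The list median was -0.06, 0.17 and 0.21 over the 3 sets, beside all-gene medians of -0.0041, 0.0089 and 0.0093. BMP and TGF-beta genes gave 3 higher and 6 lower of 24 in all nuclei, beside 14.0% and 12.7% of all genes. Without doublets 1 of 20 was lower and in neuron-poor nuclei 1 of 16, beside 3.16% and 1.77%. In both sets that gene was Bmp5, a BMP ligand, with -0.92 ± 0.12 in all, -0.73 ± 0.16 in doublet-free and -0.85 ± 0.23 in neuron-poor nuclei, and its doublet-free call was lost without IL-27 replicate 4 (adjusted p = 0.055). Of 18 Wnt genes 9 were lower in all nuclei (12.7% of all genes). Of 16 without doublets Tcf7l2 fell and Ror2 rose, 1 in each direction beside 3.16% and 4.1% of all genes, and of 14 in neuron-poor nuclei Znrf3 and Ror2 rose and 0 fell (1.9% and 1.77%).

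Ror2, a receptor for Wnt5a, had a difference of 0.21 ± 0.13 in all nuclei, 0.67 ± 0.15 in doublet-free (60.8 to 208 CPM against 43.3 to 205 CPM, adjusted p = 0.00937, lost without saline replicate 1) and 0.79 ± 0.17 in neuron-poor nuclei. Notch genes went from 5 of 6 lower to 1 of 5 and 0 of 5 over the 3 sets, beside 12.7%, 3.16% and 1.77% of all genes. Among 20 tested genes of the semaphorin, slit and netrin systems 8 were higher and 7 lower in all nuclei (14.0% and 12.7% of all genes), and without doublets 6 were higher and 1 lower of 16 (4.1% and 3.16%). In neuron-poor nuclei 1 of 13 was called (1.9% of all genes higher and 1.77% lower), the guidance receptor Nrp1, with -0.69 ± 0.19 (adjusted p = 0.0158).

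Muller genes outside the rule were lower when all nuclei were counted, 16 of 18 (12.7% of all genes were lower), with a list median of -0.50. Without doublets 4 of 18 were lower (3.16% of all genes) and the median was -0.16, and in neuron-poor nuclei 2 were lower (1.77%), 1 was higher (1.9%) and the median was -0.02. The 2 that stayed lower were Crym, with -0.94 ± 0.08, -0.65 ± 0.10 and -0.53 ± 0.11, and Car14, a membrane carbonic anhydrase gene, with -1.01 ± 0.12, -0.67 ± 0.14 and -0.49 ± 0.15. The rule's own Muller genes were not tested.

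Interferon genes were lower in all and in doublet-free nuclei. The rule's 2 limits cap how many interferon and reactive genes a nucleus shows, at median depths of 5788 UMIs in co-positive and 4501 UMIs in negative nuclei, and their part in these values was not tested. Of 27 tested interferon genes not used by the limits, 24 were lower in all nuclei, 10 of 25 without doublets and 0 of 22 in neuron-poor nuclei, beside 12.7%, 3.16% and 1.77% of all genes, with medians of -0.74, -0.43 and -0.19. The guanylate-binding protein gene Gbp3 went from -1.02 ± 0.13 to -0.37 ± 0.17 (adjusted p = 0.317). Of the gliosis list 5 of 11, 3 of 10 and 2 of 10 were lower. Osmr, the oncostatin M receptor gene, kept -0.49 ± 0.15 (adjusted p = 0.0484) and the hyaluronan receptor gene Cd44 -0.44 ± 0.13 (adjusted p = 0.0341) in neuron-poor nuclei. The nuclear RNA Neat1 fell by 1.41, 1.21 and 0.98 and the metallothionein gene Mt1 by 1.30, 0.97 and 0.60 on the log2 scale over the 3 sets.

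The share of the co-positive nuclei did not differ detectably between IL-27 and saline. Of the Muller-gate nuclei they made up 9.73%, 11.5% and 7.99% with saline and 13.8%, 8.87% and 7.46% with IL-27, so that the highest and the lowest were both IL-27 libraries. The mean was 9.73% ± 1.74 (SD, n = 3) with saline and 10.0% ± 3.31 (SD, n = 3) with IL-27, which is 0.303 points higher (two-sided exact permutation test, p = 0.9, where 0.1 is the smallest this design allows). After thinning to 2000 UMIs the shares were 4.09%, 5.43% and 2.03% against 5.13%, 3.66% and 3.71% (exact permutation p = 1). Without doublets they were 8.38%, 9.74% and 6.57% against 9.97%, 7.97% and 6.03%, a difference of -0.239 points (exact permutation p = 0.8).

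**Figure D5:**
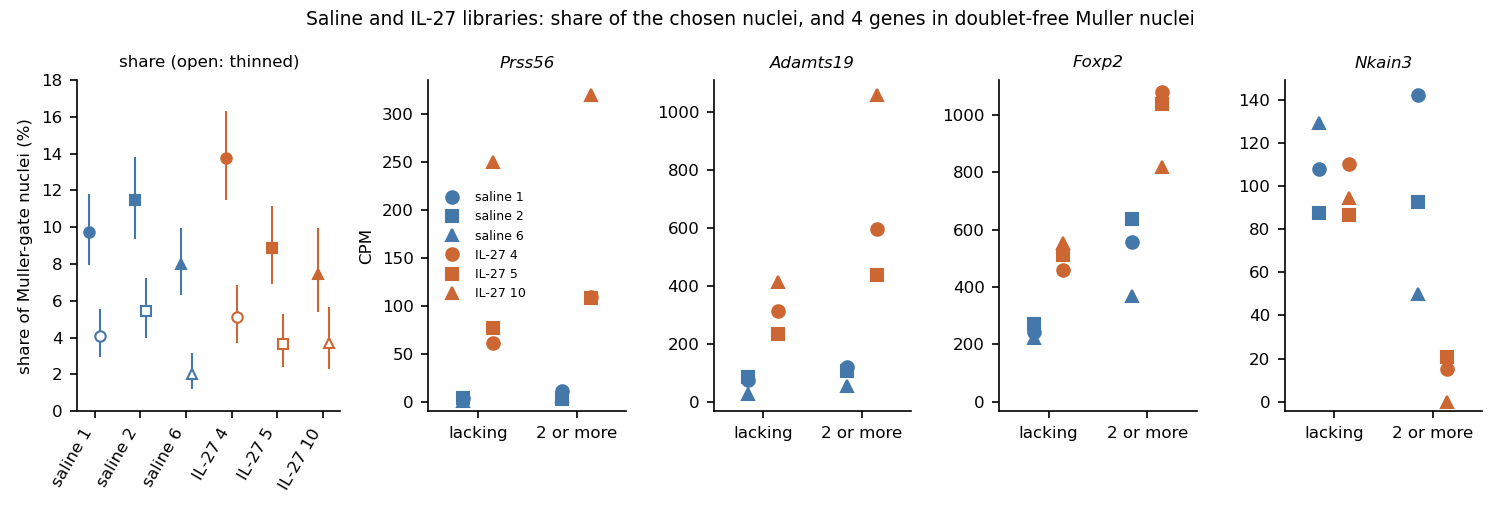
Left, co-positive nuclei as a share of Muller-gate nuclei (y axis, %), filled points as counted and open points after thinning to 2000 UMIs, with 95% exact binomial intervals. Right, level of 4 genes (y axes, CPM) in doublet-free negative and co-positive nuclei, 1 point a library, blue saline and orange IL-27. Prss56, Adamts19 and Foxp2 lay higher in all IL-27 libraries in both classes, and Nkain3 lower in the co-positive nuclei.

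No gene passed an adjusted p of 0.05 between IL-27 and saline in the co-positive nuclei by edgeR, of 9425 tested (0.0% in either direction), while an unadjusted p under 0.05 was reached by 155 higher and 144 lower genes, and DESeq2 called 2 and 2. Summed over its co-positive nuclei, a library held 799865, 745949 and 998231 UMIs in saline and 930786, 442311 and 277462 UMIs in IL-27 libraries. Of all genes tested, 9.32% had libraries that did not overlap between the groups, and in negative nuclei 9.62% did. Without doublets the edgeR count was again 0 and 0 of 5850 (163 and 206 unadjusted, 2 and 6 by DESeq2). In neuron-poor nuclei 3 genes were higher (0.0978%) and 1 was lower (0.0326%) of 3068, namely Adamts19, Prss56 and Foxp2, and Nkain3.

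Prss56 and Adamts19 were the genes that DESeq2 called higher. Prss56, a secreted serine protease gene tied to eye growth, lay at 7.5, 2.68 and 3.01 CPM in saline and 55.9, 102 and 213 CPM in IL-27 libraries in all co-positive nuclei, and rested on 11 UMIs against 156. This was a log2 fold change of 4.66 ± 0.59 (edgeR adjusted p = 0.0645), and 4.17 ± 0.63 (adjusted p = 4.64e-04) in neuron-poor nuclei. In negative nuclei it lay at 3.49, 3.04 and 1.08 against 55.7, 70.7 and 236 CPM, with 5.54 ± 0.65 (adjusted p = 0.02, lost without saline replicate 1 or 2 or IL-27 replicate 5). The difference of the 2 responses was -0.72 ± 0.54 (adjusted p = 1).

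Adamts19, a metalloprotease gene, lay at 76.3, 73.7 and 35.1 CPM in saline and 326, 330 and 887 CPM in IL-27 libraries. Its log2 fold change was 3.05 ± 0.43 (adjusted p = 0.0645) in co-positive and 2.35 ± 0.39 (adjusted p = 0.192) in negative nuclei, a difference of 0.49 ± 0.28 in the joint fit (adjusted p = 1). In neuron-poor nuclei both classes passed, with 2.69 ± 0.29 and 2.34 ± 0.30. Foxp2 rose in negative nuclei, by 1.05 ± 0.12 (adjusted p = 0.02, and 0.0559 to 0.182 with any 1 library left out). In co-positive nuclei it had 0.98 ± 0.27 (adjusted p = 1), at 383, 363 and 178 against 525, 710 and 569 CPM, and passed in neuron-poor nuclei with 0.84 ± 0.18 (adjusted p = 0.0403).

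The class differences of Adamts19 and Foxp2 were also read within each treatment. In all nuclei that of Adamts19 was 0.46 ± 0.14 (adjusted p = 0.019), and the call was lost without IL-27 replicate 5 (adjusted p = 0.0511) or IL-27 replicate 10 (adjusted p = 0.136). Without doublets, Foxp2 was higher in co-positive nuclei by 1.06 in saline and 0.98 in IL-27 libraries alone, both past the threshold. Adamts19 had 0.66 in saline (adjusted p = 0.16) and 1.08 in IL-27 libraries (adjusted p = 2.98e-06). Negative nuclei gave 2 genes higher with IL-27 (0.0162%) and 0 lower of 12355, which were Foxp2 and Prss56. Without doublets Adamts19 and Ror2 joined them (0.0351%), and in neuron-poor negative nuclei 7 genes were higher (0.0678%), these 4 among them, and 1, Vegfa, was lower (0.00969%). In the test of the difference of responses 0 genes were higher and 0 lower of 11342 (0.0% each, 184 and 198 by unadjusted p, 0 and 0 by DESeq2).

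Nkain3, whose product binds the sodium pump, was the 1 gene for which the difference of responses passed in neuron-poor nuclei, with -3.57 ± 0.64 (adjusted p = 9.32e-04, 0.0137% of 7277 genes lower). Its neuron-poor co-positive count was low, 54 UMIs in 17 of 106 saline nuclei and 3 UMIs in 3 of 88 IL-27 nuclei. Without doublets no gene passed for the difference of responses (0.0% of 9363 genes in either direction). Nkain3 was singled out after its values were seen. In doublet-free co-positive nuclei it lay at 142, 92.4 and 49.8 CPM in saline and 15.2, 20.8 and 0 CPM in IL-27 libraries. The groups did not overlap, as for 12.2% of all genes tested in those nuclei. In doublet-free negative nuclei Nkain3 lay at 108, 87.3 and 129 against 110, 86.4 and 94.2 CPM. The doublet-free co-positive count was 116 UMIs in 31 of 183 saline nuclei and 10 UMIs in 7 of 144 IL-27 nuclei. This was a ratio per UMI of 7.02 (95% exact interval 3.68 to 15, counting error only), and 1 nucleus of saline replicate 1 held 29 of the UMIs. With doublets kept, the values were 115, 105 and 104 against 81.7, 102 and 3.6 CPM, and the difference of responses was -0.44 ± 0.40 (adjusted p = 1).

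Fam129a, which encodes Niban, and Mecom, also singled out after their values were seen, were lower with IL-27 by DESeq2. Fam129a lay at 22.5, 34.9 and 31.1 CPM in saline and 0, 2.26 and 0 CPM in IL-27 libraries (edgeR adjusted p = 0.0645). The count was 75 UMIs against 1, a ratio of 48.7 (95% exact interval 8.47 to 1950, counting error only). The transcription factor gene Mecom lay at 35.0, 22.8 and 46.1 against 4.3, 0 and 0 CPM (91 UMIs against 4, adjusted p = 0.231). Doublet-free co-positive nuclei held 73 UMIs of Fam129a and 88 of Mecom, and neuron-poor ones 3 and 0.

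Of the lists, the Muller genes named by the study, chosen on these samples and so not independent evidence, had 14 of 16 tested genes above 0 with IL-27 in co-positive nuclei. Their median was 0.56 beside -0.0038 over all genes, with none called (0.0%), and 0.71 without doublets. In neuron-poor nuclei 13 of 15 were above 0, with a median of 0.84, and Adamts19 and Prss56 were called (0.0978% of all genes). In all negative nuclei 14 of 17 were above 0, with a median of 0.49. Retinoic acid genes had 8 of 9 above 0 and a median of 0.33, with Rdh10, a retinol dehydrogenase gene, at 1.04 ± 0.27 (adjusted p = 1). Without doublets that list had 4 of 5 above 0 and a median of 0.40, and in negative nuclei 9 of 11 and 0.26. Interferon genes had 18 of 23 above 0 and a median of 0.30, then 12 of 18 and 0.21 without doublets and 7 of 12 and 0.03 in neuron-poor nuclei, with none called. In negative nuclei 29 of 29 interferon genes were above 0, with a median of 0.34, again with none called. The gliosis list had 10 of 10 above 0 and a median of 0.27, then 10 of 10 and 0.33, and 6 of 7 and 0.39 over the narrower sets, and in negative nuclei 10 of 13 and 0.12. The limits had selected both classes for few interferon and reactive genes. Bipolar markers had 0 of 6 above 0 and a median of -0.65, and ciliary markers 1 of 5 and -0.92 with none called. Without doublets these were 0 of 4 and -2.54, and 1 of 3 and -1.88, and in negative nuclei 0 of 6 and -0.22, and 0 of 5 and -0.54. Of the ciliary list, the study names Fbln1, Frmpd4, Reln and Csmd3 as raised in a saline-specific Muller subpopulation of these samples. A lower level of that list with IL-27 is therefore not independent evidence. The bipolar sums were 1715, 2562 and 4745 CPM in saline and 2861, 1494 and 2249 CPM in IL-27 libraries, which overlap. Without doublets they were 1584, 245 and 5480 against 655, 391 and 424 CPM, which overlap as well, with saline replicate 2 the lowest library. In neuron-poor co-positive nuclei 1 bipolar gene was tested, at 0.65 with IL-27, and no ciliary gene passed the count filter.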

How the data were processed

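Nuclei from 6 rd10 retina libraries were captured on the 10x Chromium platform. The authors deposited raw UMI counts per gene and barcode, made with Cell Ranger (9.0.1 per the labels, 8.0.1 per the file headers) and analysed with Seurat 5.2.1. The genome build is not given in the sources used here. Of 32285 features, 99.61% had an identifier in GENCODE M21 (GRCm38), from which positions were taken.

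Nuclei were chosen with Python 3.11.15 and scanpy 1.11.5 by fixed UMI rules, with no clustering. The members, gene lists and comparisons were chosen with earlier results of these data known. Counts were summed per library and class and tested with edgeR 4.0.16 in R 4.3.3 (quasi-likelihood, TMM, default count filter, Benjamini-Hochberg), with the library as a block between classes. The 23 genes of the rule were left out of counts of calls. Levels are CPM of these sums. Doublets were scored with Scrublet (expected 8%), kept in the main fits and removed in alternatives. The other alternatives were DESeq2 1.42.0, its size factors, no count filter, 2000 to 8000 UMIs per nucleus, removal of nuclei with outlying depth, 3 or more genes, no library block, removal of neuronal or ciliary nuclei, and each library left out. Shares were compared by two-sided exact permutation tests, and intervals are 95% Clopper-Pearson.

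Named genes were the 5 of the rule, the tested genes of the patterning lists and of the Muller genes the study named, up to 15 per direction with the smallest adjusted p and the same side in all 6 libraries between classes, up to 10 per direction for IL-27 with groups that did not overlap, up to 5 for the difference of responses, and up to 4 called genes per direction of each other list. The rule was applied to all 3 sets of nuclei, and some genes it names are not reported here. In simulated counts, 200 genes were changed by 1.5 on the log2 scale. Of these, edgeR recovered 197 between the classes (9 false calls of 10278 genes). It recovered 156 for IL-27 in co-positive nuclei (1 of 9440) and 180 in negative nuclei (9 of 12372). Whether these counts vary between libraries as much as the real ones was not tested. In the real counts of all co-positive nuclei, Prss56 and Adamts19 differed by more than 1.5 with IL-27 and did not pass in edgeR.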

Additional observations from a re-analysis of the deposited data

How the results depend on the processing

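The saline and IL-27 libraries were compared unpaired. The paper describes 1 injected eye per mouse, with saline or IL-27, and the labels give no pairing of libraries. Between classes the library was the block; without it 1213 genes were higher and 978 lower. The difference in share between IL-27 and saline changed sign without doublets (-0.239 points), over all nuclei (-0.137), with Ano1 left out of the gate (-0.222), in neuron-poor nuclei (-0.412), and from -1.57 to 1.59 with 1 library left out (-0.566 without saline replicate 6), and p was 0.4 or more throughout.

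Genes higher and lower in co-positive nuclei numbered 334 and 257 without doublets (204 and 145 by DESeq2), 118 and 110 in neuron-poor nuclei, 207 and 210 at 2000 to 8000 UMIs, 914 and 788 without nuclei of outlying depth, and 826 and 589 in IL-27 libraries alone. Without doublets they were 144 and 76 in IL-27 and 164 and 34 in saline libraries alone. With 1 library left out they were 1157 to 1457 and 1016 to 1340, and without doublets 219 to 351 and 147 to 237 (219 and 147 without saline replicate 1, 256 and 194 without saline replicate 6, 322 and 194 with IL-27 replicate 10 left out, 248 and 160 without IL-27 replicate 4, 339 and 227 without IL-27 replicate 5). Fewer nuclei entered each of these fits than the comparison of all nuclei.

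For IL-27 in co-positive nuclei, genes higher and lower were 2 and 2 by DESeq2, 2 and 6 by DESeq2 without doublets, 3 and 1 in neuron-poor nuclei, 9 and 25 with no filter, 5 higher at 2000 to 8000 UMIs, 2 higher without ciliary nuclei and 2 and 1 without outlying depth. With 1 library left out they were 0 to 1 and 0 to 0, and without doublets 0 to 3 and 0 to 28, the latter without saline replicate 2. In negative nuclei they were 5 higher by DESeq2, 4 without doublets (10 and 2 by DESeq2), 7 and 1 in neuron-poor nuclei, 41 and 25 with no filter, 4 at 2000 to 8000 UMIs and 4 without outlying depth. With 1 library left out they were 0 to 2 and 0 to 0, and without doublets 2 to 5 and 0 to 10, the highest without saline replicate 1. For the difference of responses they were 2 and 8 with no filter and 1 lower in neuron-poor nuclei, with 0 to 0 higher and 0 to 1 lower with 1 library left out, and 0 to 14 lower without doublets, the highest without saline replicate 2.

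Ror2 between classes changed sign with 3 or more genes (-0.10) and in IL-27 libraries alone (-0.049). The cause of these changes was not tested. Vax2 and Tbx5 rest on few UMIs, which limits their precision.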
